A study of Mus musculus with 17 samples.

Results

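A set of 10 genes that mark the endothelium of brain vessels, or the barrier that it forms, was followed in mouse cortex: Cldn5, Cdh5, Pecam1, Slc2a1, Abcb1a, Slco1a4, Mfsd2a, Flt1, Tek and Ly6c1. They were chosen by symbol and not by a rule on their values, but with earlier results of these data known. All 10 were found once each among the 55453 distinct symbols of the expression table. All 10 also passed the filter on low values, a mean of at least 1 TPM over all mice, as did 16265 genes in total. TPM, the unit of the table, is a level corrected for transcript length and scaled to the total of each sample, so levels of different genes could be compared with each other.

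The 17 mice were C57BL/6J males, and whole cortex RNA of each was sequenced, in 6 groups. KO mice were hemizygous for a frameshift allele of Hnrnph2, the X-linked gene of an RNA-binding protein, and came from a single line. R206W and P209L mice were hemizygous for the knockin alleles Hnrnph2 R206W and Hnrnph2 P209L, which change 1 amino acid of the protein. Each had wild-type littermates of its own line, named KO Control, R206W Control and P209L Control. The mice of both other lines were 8 weeks old and those with P209L or its controls 3 weeks old, so line and age cannot be told apart for the P209L line. Each group held 3 mice, except P209L Control with 2 analysed here. The animals were treated as separate replicates, and the depth behind each sample is unknown because TPM does not carry it.

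Endothelial cells of the brain are sealed to each other by tight junctions, built around claudin 5, and carry nutrient transporters and drug efflux pumps in place of leaky gaps. Vascular endothelial growth factor (VEGF) and angiopoietins act on receptors of these cells, and Wnt ligands from neural cells maintain the barrier program through beta-catenin. These vessels mature during the first weeks of life, while cells without endothelial identity fill most of the tissue. In bulk cortex, fewer endothelial cells and less RNA per cell cannot be told apart.

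The level of the targeted gene checked the labels: Hnrnph2 was at 21.3 to 24.4 TPM in KO and at 80.5 to 145 TPM in KO Control. The KO libraries therefore matched their label, and the lowest control value belonged to KO Control 1. That library stood apart in composition, with 20.1% of its TPM in mitochondrially encoded genes against 10.7% to 15.4% in the other 16. P209L Control 2 stood apart in another way: 7 choroid plexus markers summed to 1780 TPM in it and to between 5.96 and 16.2 TPM in the other 4 mice of 3 weeks. The cortex markers were present in every mouse (7 genes, summed level 163 to 323 TPM). For many results that rest on KO Control 1 or P209L Control 2, values without that library stand beside them. They are not given for every single gene.

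The 10 genes lie on chromosomes 4, 5, 6, 8, 11, 15 and 16 in the GENCODE M21 annotation of GRCm38. Cldn5 (claudin 5) is a single-exon gene at chr16:18776847-18778262, plus strand. Flt1 (VEGF receptor 1), with 30 exons in its longest coding transcript, lies at chr5:147561604-147726011, minus strand. Slco1a4 (an organic anion transporter) lies at chr6:141805440-141856199, minus strand, and Abcb1a (the efflux pump P-glycoprotein) at chr5:8660077-8748575, plus strand. Pecam1 and Cdh5, the adhesion proteins CD31 and VE-cadherin, are on chromosomes 11 and 8. Slc2a1, Mfsd2a and Tek share chromosome 4, and Ly6c1 is on chromosome 15.

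RefSeq promoters (GRCm38.p6) were at hand for 8 of the 10 genes, and the 120 bases just upstream of the start are shown for 4 of them. Flt1 and Abcb1a are shown because they followed the rest of the genes most closely across mice, Slco1a4 because it ran against them, and Cldn5 as the structural core of the junction. Capitals mark the core string of ETS family sites (AGGAAG) or its reverse complement (CTTCCT), and the TATA-box string (TATAAA).
Flt1, chr5:147726012-147726131, minus strand: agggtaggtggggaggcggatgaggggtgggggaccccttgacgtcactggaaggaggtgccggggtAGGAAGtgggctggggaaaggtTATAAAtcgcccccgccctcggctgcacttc
Abcb1a, chr5:8566971-8567090, plus strand: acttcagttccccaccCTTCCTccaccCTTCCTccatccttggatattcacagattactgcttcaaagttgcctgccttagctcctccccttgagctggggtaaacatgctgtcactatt
Slco1a4, chr6:141856221-141856340, minus strand: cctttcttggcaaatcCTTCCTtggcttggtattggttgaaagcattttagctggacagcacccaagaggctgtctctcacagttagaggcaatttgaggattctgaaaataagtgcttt
Cldn5, chr16:18776727-18776846, plus strand: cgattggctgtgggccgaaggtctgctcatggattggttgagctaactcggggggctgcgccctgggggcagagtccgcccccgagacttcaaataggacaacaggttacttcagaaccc

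The Flt1 stretch held both strings, Abcb1a and Slco1a4 held AGGAAG on the other strand, and Cldn5 held neither. Over the 250 bases upstream of the start and on both strands, AGGAAG was in the promoter of 4 of the 8 genes (Abcb1a, Flt1, Ly6c1 and Slco1a4), and 29.5% of all 32851 promoters in the table held it. TATAAA was found for Flt1 and Ly6c1, against 12.4% of all promoters. The string of TCF and LEF family sites, spelled ATCAAAG, was in none of the 8 and in 3.21% of all promoters. The string of GATA family sites, which reads GATAAG, was likewise in none of the 8, while 6.55% of all promoters held it. The promoter of Slco1a4 had the lowest GC content of the 8, 39.2%, and that of Flt1 the highest, 70.4%. The Abcb1a start in RefSeq lies upstream of the GENCODE gene start given above.

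All 10 genes were detected in all 17 mice. The lowest single value was 1.19 TPM, for Cdh5 in P209L 1, and the highest was 121 TPM, for Ly6c1 in P209L Control 2. Ly6c1, a surface protein of the Ly6 family that marks capillary endothelium, had the highest mean in all 6 groups, from 88.4 ± 3.62 TPM in R206W to 118 ± 4.72 TPM in P209L Control (SD, n = 3 and n = 2). Slc2a1 (the glucose transporter GLUT1) and Slco1a4 followed, with means of 31.1 to 75.0 and 39.1 to 73.0 TPM, and their ranges overlapped in 4 groups and were apart in R206W Control and P209L. Cldn5, Mfsd2a (a lysophosphatidylcholine transporter that also restrains transcytosis) and Flt1 were next at 8 weeks, with group means of 15.2 to 30.5 TPM. Cdh5 had the lowest mean in every group, 1.35 to 5.87 TPM.

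**Figure D1:**
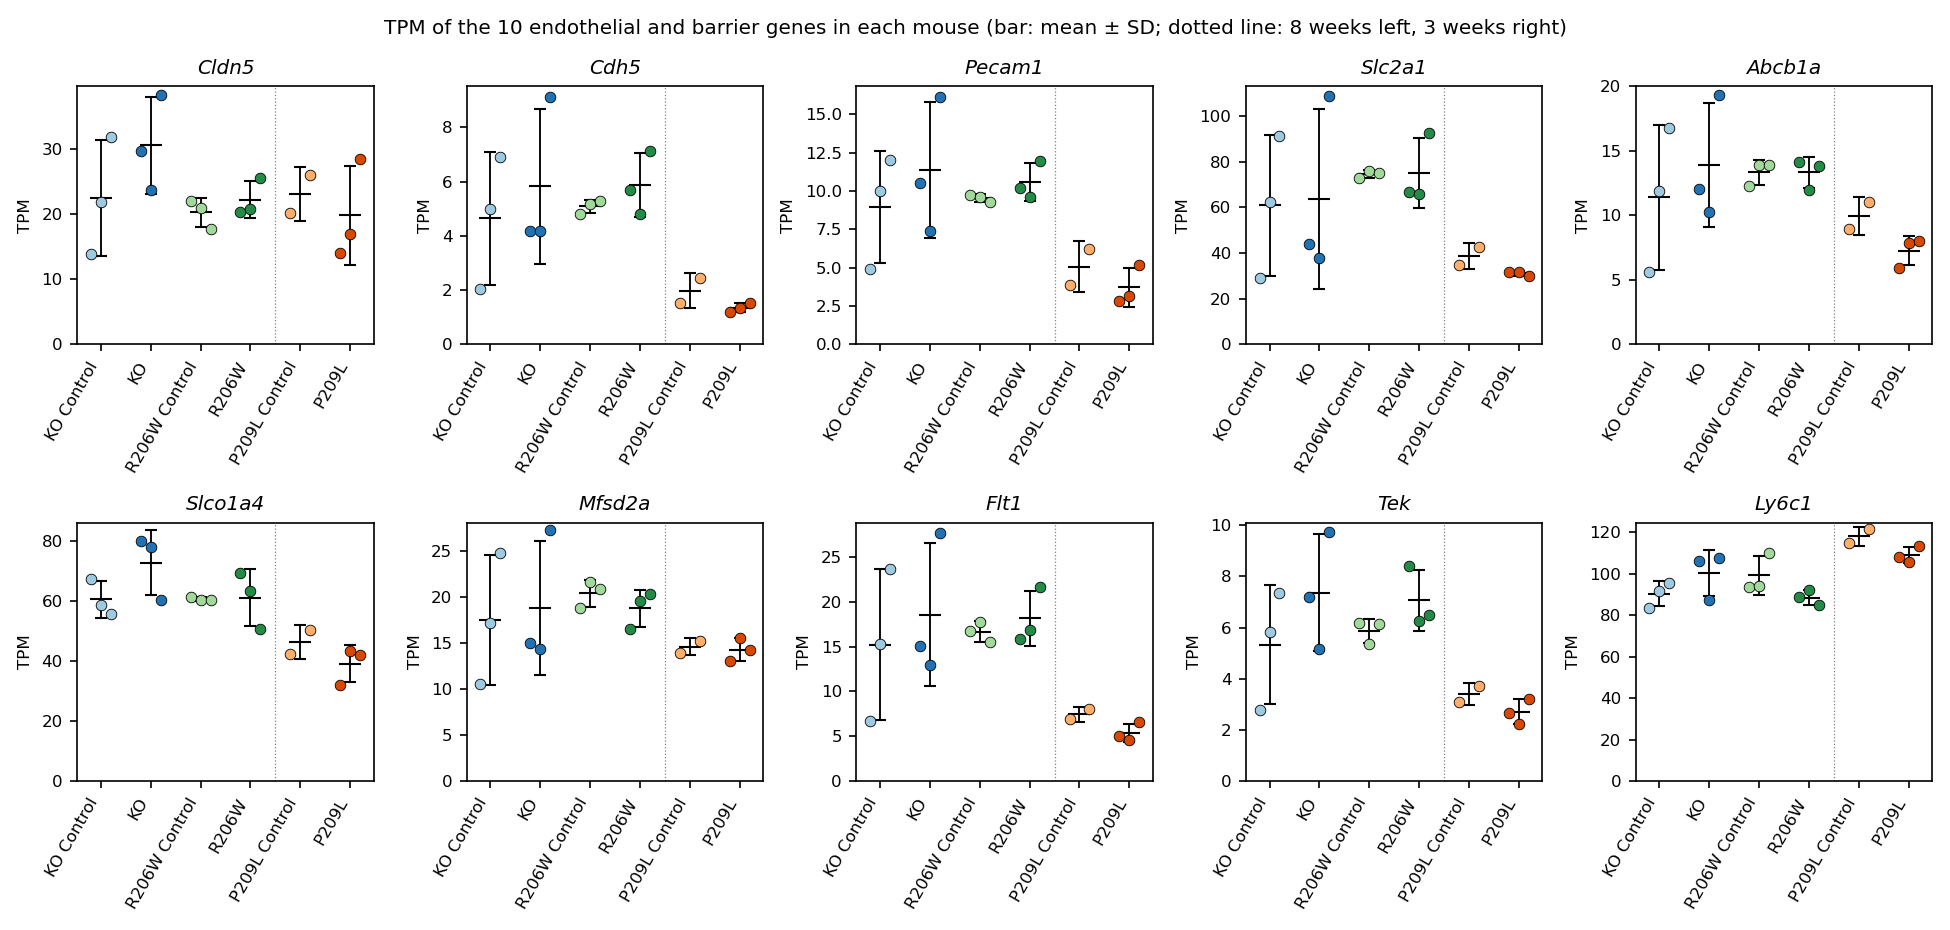
TPM of each of the 10 genes (y axis) in every mouse, by group (x axis); points are mice, bars are the mean ± SD, and the dotted line separates the groups of 8 weeks from those of 3 weeks. The mice of the KO line are spread far apart for Slc2a1 (29.3 to 109 TPM) and lie close together in R206W Control (72.9 to 76.1 TPM).

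The first question was whether loss of Hnrnph2 moved these genes at 8 weeks. None of the 10 was called in KO against KO Control, at an adjusted p of 0.999 in limma for each, and none was past an unadjusted 0.05. Only 0.00615% of all genes tested were called, and that 1 gene was Hnrnph2. All 10 means were higher in KO, by 0.04 (Slc2a1) to 0.47 (Cldn5) in log2(TPM + 1), with a median of 0.31 against 0.06 over all genes. The groups overlapped for all 10 genes, and 6.25% of all genes did not overlap.

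Among the junction genes, Cldn5 was at 13.9, 21.7 and 31.7 TPM in KO Control and at 29.6, 23.6 and 38.3 TPM in KO. The middle control lay below every KO mouse and the highest control above both lower ones. The difference was 0.47 ± 0.27 (SE), with a 95% interval of -0.10 to 1.04 on the log2 scale. Pecam1 was at 4.93, 10.02 and 12 TPM in KO Control and at 10.5, 7.38 and 16.2 TPM in KO. Cdh5 was at 2.04, 5.0 and 6.91 TPM in KO Control and at 4.19, 4.18 and 9.12 TPM in KO. In both genes the lowest mouse was KO Control 1 and the highest was KO 3.

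Slc2a1 showed the same pair at its ends: it was at 29.3, 62.3 and 91.2 TPM in KO Control and at 44.1, 37.7 and 109 TPM in KO. Its difference was 0.04 ± 0.36 (SE), so the means were alike while single mice differed up to 3.72-fold (KO 3 over KO Control 1). Slco1a4 ran the other way within each group, at 67.6, 58.7 and 55.8 TPM in KO Control and at 80.3, 78.0 and 60.6 TPM in KO. KO 3, highest for 8 genes, was the lowest KO mouse for Slco1a4, and KO Control 1 was the highest of its controls. The difference was 0.26 ± 0.15 (SE), with a 95% interval of -0.06 to 0.57.

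Tek (the angiopoietin receptor TIE2) was at 2.78, 5.84 and 7.35 TPM in KO Control and at 7.20, 5.16 and 9.73 TPM in KO, a difference of 0.44 ± 0.24 (SE). Flt1 was at 6.71, 15.4 and 23.7 TPM in KO Control and at 15.1, 12.9 and 27.7 TPM in KO. The other 3 genes differed by 0.33 (Abcb1a), 0.15 (Ly6c1) and 0.12 (Mfsd2a), all within the spread between mice.

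The direction in KO rested on 2 mice. Of the 12 mice of 8 weeks, KO Control 1 had the lowest level of 9 of the 10 genes and KO 3 the highest of 8. Without KO Control 1, 4 genes were higher and 6 lower, with a median of -0.04. Without KO 3, 7 were higher and the median was 0.07. Without both, 3 were higher, 7 were lower and the median was -0.30. None of these fits called any of the 10 genes. Markers of other cell types were mostly higher in KO too, as with 8 of 8 astrocyte, 7 of 8 oligodendrocyte and 8 of 10 pericyte genes, none of them called, against 67.3% of all genes that were higher. Without KO Control 1 these counts were 6 of 8, 4 of 8 and 7 of 10. Their part in the KO values was not tested. With sample weights, which gave KO Control 1 a weight of 0.0744 and KO 3 one of 0.218, 2 genes were called: Slco1a4 was higher by 0.42 (adjusted p = 0.0089 in limma) and Slc2a1 changed sign to -0.54 (adjusted p = 0.0343). That fit called 17.1% of all genes, so 2 of 10 is near its background.

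The members that moved together in these mice were quantified over the 12 mice of 8 weeks after the mean of each group was removed, as a description of libraries that share an unknown depth and the composition noted above. Pearson's r of a gene with the mean of the other 9 was 0.981 for Abcb1a, 0.979 for Flt1, 0.977 for Pecam1, 0.968 for Slc2a1 and 0.966 for Cdh5. It was 0.949 for Mfsd2a, 0.933 for Cldn5 and 0.908 for Tek. Ly6c1 was at 0.574 and Slco1a4 at -0.764. With KO Control 1 and KO 3 left out (10 mice), r was 0.697 to 0.877 for the first 7, 0.489 for Tek, 0.262 for Ly6c1 and -0.474 for Slco1a4. Within the 6 mice of the R206W line, where the spread is small, r was 0.976 for Cdh5, 0.913 for Pecam1, 0.885 for Slc2a1 and 0.652 for Flt1, and -0.867 for Slco1a4. It was 0.506 for Abcb1a, 0.422 for Cldn5 and 0.188 for Mfsd2a, and it changed sign for Tek (-0.336) and Ly6c1 (-0.496).

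**Figure D2:**
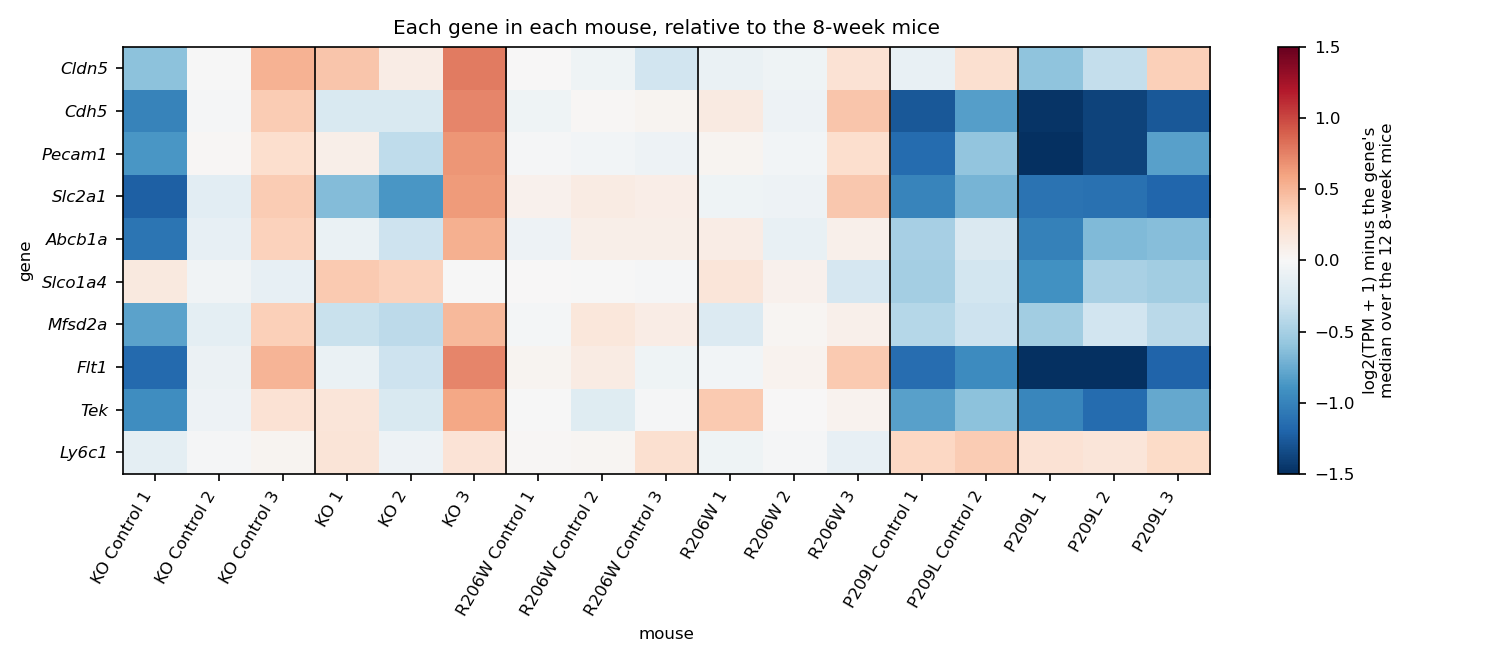
Log2(TPM + 1) of each gene (rows) in each mouse (columns), shown as the difference from the gene's median over the 12 mice of 8 weeks; the colour scale ends at 1.5 in both directions. KO Control 1 is blue and KO 3 red in every row except Slco1a4, and both differences are small for Ly6c1. The mice of 3 weeks are blue in every row except Cldn5, where they are mixed, and Ly6c1, where they are red.

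The 10 genes outside the list whose pattern was most like the mean of the members were Cdk16, Adgrf5, Lmf2, Esam, Kcnip2, Alg3, Arsa, Anxa5, Borcs6 and Ccnl2, with r of 0.99 to 0.992 over the same 12 mice. Adgrf5 and Esam are endothelial genes of the wider lists, and the other 8 are in none of them. Without KO Control 1 and KO 3 their r was 0.911 to 0.979. Esam, a junction adhesion molecule, was at 10.8 TPM in KO Control 1 and 26.9 TPM in KO 3.

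GC content of the transcripts moved with this spread. GC content was that of the longest coding transcript, or of the longest transcript of any type where a gene had no coding one. Across 16138 genes with such a value, the log2 difference of KO 3 from KO Control 1 had a Spearman correlation of 0.582 with it. This is a description across genes that are not independent replicates. The median difference went from -0.08 in the fifth of genes lowest in GC to 0.73 in the fifth highest in GC. Slco1a4 has the lowest GC content of the 10 genes (40.3%) and was the only one lower in KO 3 than in KO Control 1, at 0.897 of its level. The ratio was 1.28 for Ly6c1 (49.6% GC) and between 2.57 and 4.47 for the other 8 genes (45.2% to 60.5% GC). These 8 differed by 1.29 to 1.90 in log2(TPM + 1), more than the median of all genes at any GC level.

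**Figure D3:**
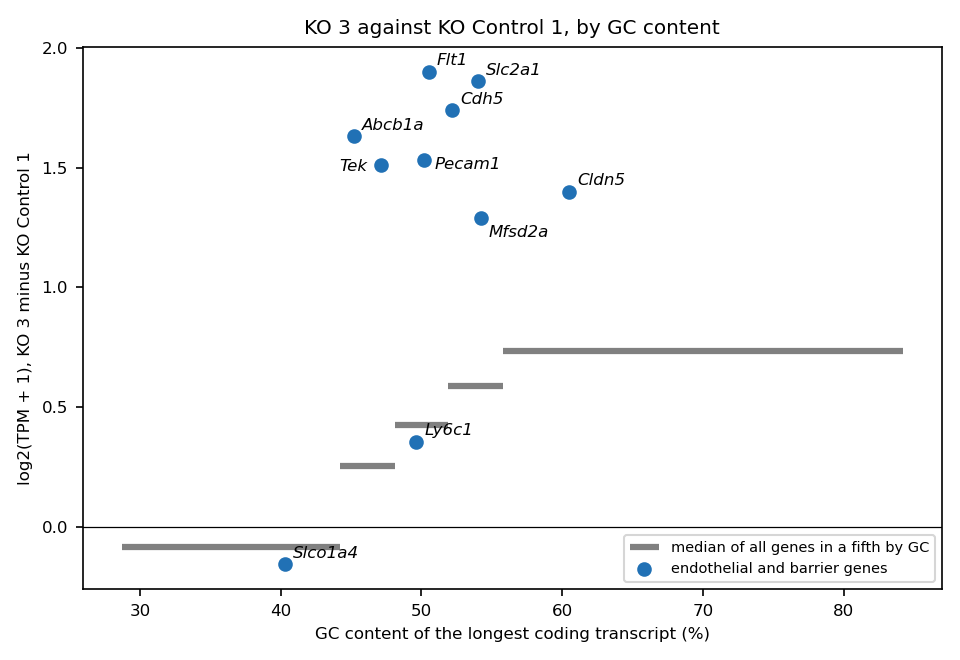
Difference between KO 3 and KO Control 1 in log2(TPM + 1) (y axis) against the GC content of the longest coding transcript (x axis); points are the 10 genes and grey bars are medians of all genes in 5 equal bins by GC, each drawn over the range of its bin. Ly6c1 and Slco1a4 lie close to the bars of their own GC range, and the other 8 genes lie above all grey bars (-0.08 to 0.73). The 2 mice hold the extremes of most of the 10 genes, so large differences follow from the choice of pair. Genes without a coding transcript were placed by their longest transcript of any type.

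When the trend with transcript length and GC was removed from each sample, the median within-group SD of the 10 genes in the KO line went from 0.548 to 0.365, and that of all genes from 0.24 to 0.145. In the R206W line it went from 0.161 to 0.12. KO against KO Control then gave 9 genes higher, with a median of 0.26, and none called. The part of sample composition in the KO values was not tested further.

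In the R206W line, sampled at the same age, the same genes sat in a narrow band. The summed level of the 10 genes was 318 to 334 TPM in R206W Control and 311 to 335 TPM in R206W, against 227 to 425 TPM in the KO line. None of the 10 was called (adjusted p = 1 in limma for all), against 0.0369% of all genes, and none was past an unadjusted 0.05. Of the 10 genes, 6 were higher and 4 lower in R206W, with a median of 0.05 against 0.01 over all genes. The SE values rest on a spread pooled over all 6 groups, which was widest in the KO line. A fit to the R206W line alone called none of the 10 either, against 0.08% of all genes. In the main fit the differences ranged from -0.16 (Ly6c1) to 0.22 (Tek).

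The groups were apart for both of these end genes. Ly6c1 was at 93.5, 94.3 and 109.9 TPM in R206W Control and at 88.6, 91.9 and 84.7 TPM in R206W, a difference of -0.16 ± 0.10 (SE). Tek was at 6.16, 5.34 and 6.13 TPM in R206W Control and at 8.42, 6.25 and 6.50 TPM in R206W, a difference of 0.22 ± 0.24 (SE). Every R206W mouse was below its controls for Ly6c1 and above them for Tek, but 16.2% of all genes had groups that did not overlap, so 2 of 10 is near the background.

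For the other 8 genes the groups overlapped. Cldn5 was at 22.0, 20.9 and 17.7 TPM in R206W Control and at 20.3, 20.8 and 25.5 TPM in R206W, a difference of 0.13 with a 95% interval of -0.44 to 0.70. Slc2a1 was at 72.9, 76.1 and 75.0 TPM in controls and at 66.6, 65.9 and 92.7 TPM in R206W. R206W 3 was the highest of its group for Slc2a1 and the lowest for Slco1a4 (69.3, 63.6 and 50.9 TPM), whose controls spanned only 60.4 to 61.4 TPM. The ratio of Slco1a4 to Slc2a1 was 0.549 in R206W 3 and 0.556 in KO 3, against 2.31 in KO Control 1.

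At 3 weeks, all 10 genes were lower in P209L than in P209L Control, with log2 differences from -0.41 (Flt1 and Abcb1a) to -0.03 (Mfsd2a). None was called, with adjusted p of 0.827 to 0.999 in limma, none was past an unadjusted 0.05, and 0.0984% of all genes were called. The median of the members was -0.28 against 0.02 over all genes. In 4 genes every P209L mouse was below both controls (Abcb1a, Flt1, Ly6c1 and Slc2a1). Of all genes, 10.7% lay apart in that direction and 24.9% in either.

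Flt1 was at 6.87 and 8.02 TPM in P209L Control and at 4.97, 4.62 and 6.54 TPM in P209L. Abcb1a was at 8.93 and 11.02 TPM in controls and at 5.95, 7.84 and 8.04 TPM in P209L. The differences were -0.41 ± 0.36 and -0.41 ± 0.31 (SE), with 95% intervals that reach up to 0.35 and 0.25. Slc2a1 was at 34.6 and 42.6 TPM in controls, and at 31.9, 31.6 and 29.9 TPM in P209L. Ly6c1 was at 115 and 121 TPM in controls, and at 108, 106 and 113 TPM in P209L, a difference of -0.11 ± 0.12 (SE). In each of these 4 genes the highest P209L mouse lay close under the lower control, as with 31.9 and 34.6 TPM for Slc2a1.

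For the remaining genes at least 1 P209L mouse reached the range of the controls. Cldn5 was at 20.2 and 25.97 TPM in P209L Control, and at 14.0, 16.9 and 28.4 TPM in P209L, so its highest and lowest values were both in mutants. Pecam1 was at 3.88 and 6.24 TPM in controls, and at 2.82, 3.17 and 5.19 TPM in P209L. Cdh5 was at 1.53 and 2.44 TPM in controls, and at 1.19, 1.33 and 1.53 TPM in P209L. Slco1a4 was at 42.5 and 50.4 TPM in controls, and at 31.98, 43.3 and 42.1 TPM in P209L, and its interval was -0.60 to 0.10. Tek differed by -0.25 ± 0.27 (SE), and Mfsd2a, at 14.0 and 15.3 TPM against 13.04, 15.6 and 14.2 TPM, by -0.03 ± 0.27.

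P209L Control 2, the mouse with choroid plexus transcripts, had the highest level of 8 of the 10 genes among the 5 mice of 3 weeks. Without it, 9 of 10 genes were lower in P209L and the median was -0.12, and without P209L Control 1 it was -0.44. Oligodendrocyte markers summed to 6100 TPM in P209L Control 2 and 4090 TPM in P209L Control 1, against 2470 to 3550 TPM in P209L, and all 8 were lower in every P209L mouse (none called). Haemoglobin and Alas2 transcripts, which stand for blood, summed to 4880 and 2570 TPM in controls and to 1910 to 2840 TPM in P209L. Summed pericyte markers were 105 and 126 TPM in controls and 82.8 to 96.3 TPM in P209L, with all 10 genes lower, and 10 of 10 leptomeningeal fibroblast genes were lower too. Without P209L Control 2 the oligodendrocyte, pericyte and leptomeningeal genes were still lower in 8 of 8, 10 of 10 and 10 of 10 cases. With all mice, 46.2% of all genes were lower in P209L, and 10.7% were lower in every P209L mouse. In further lists, 7 of 8 microglia and macrophage, 5 of 8 astrocyte and 5 of 8 neuron genes were lower. The same held for 2 of 7 cortex and 2 of 5 striatum genes. The part of these other cell types in the values of the endothelial genes was not tested.

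**Figure D4:**
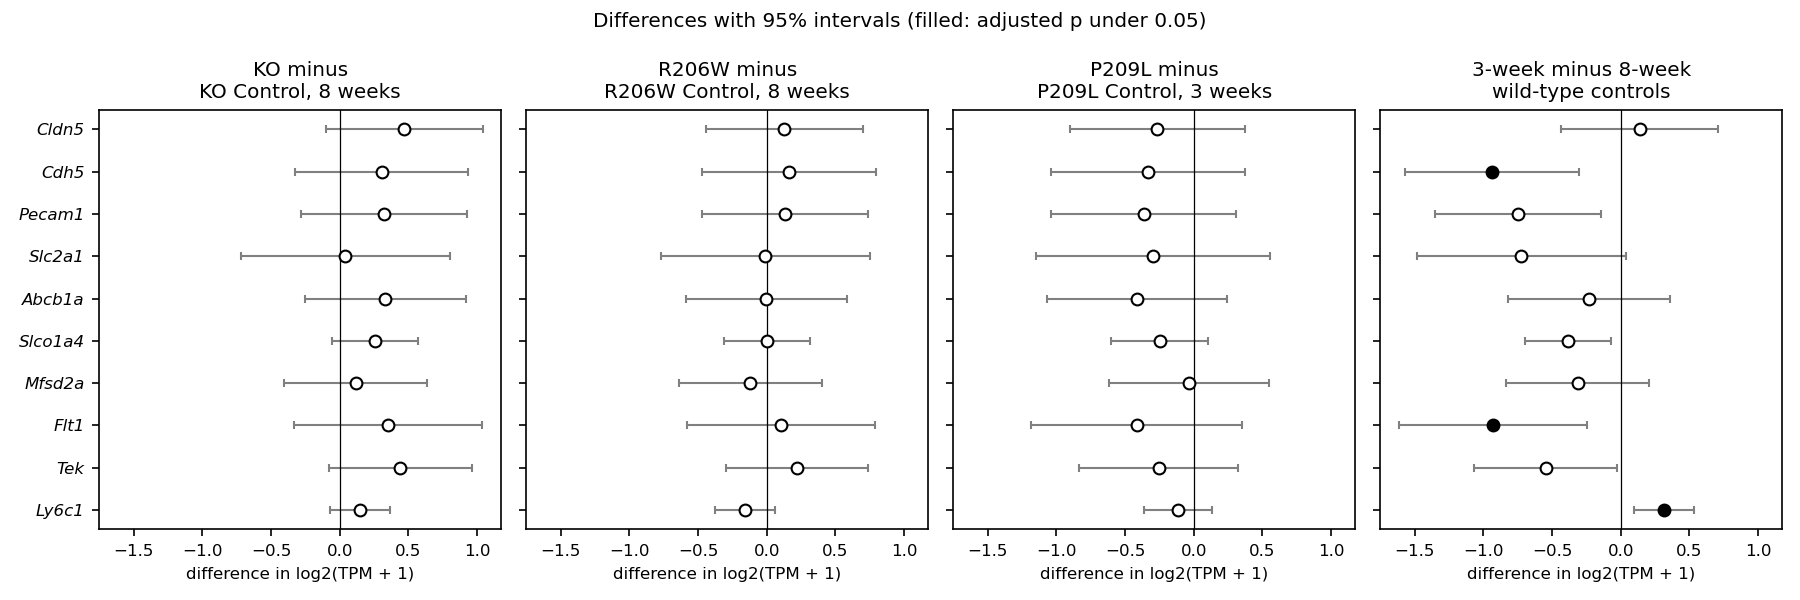
Difference in log2(TPM + 1) (x axis) for each of the 10 genes (y axis) in the 3 mutant comparisons and between the wild-type controls of both ages, with the 95% interval from limma; filled points have an adjusted p under 0.05. All KO points are at or above 0 and all P209L points below it, every interval in the mutant panels includes 0, and Cdh5, Flt1 and Ly6c1 are filled in the last panel.

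The effects of the lines were also set against each other. No member was called for the KO effect minus the R206W effect (0.0307% of all genes were), for the P209L effect minus the R206W effect (0% of all genes) or for the P209L effect minus the KO effect (0.0492%). Slco1a4 had the lowest unadjusted p for P209L against KO, with a difference of -0.50 ± 0.22 (SE; adjusted p = 0.6 in limma). Ly6c1 differed by 0.31 ± 0.15 (SE) between the KO and R206W effects (adjusted p = 1 in limma). With sample weights the Slco1a4 difference was -0.58, at an adjusted p of 0.0465, in a fit that called 3.63% of all genes.

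Wild-type controls of the 3 lines carried the remaining contrast. R206W Control and KO Control, both of 8 weeks, gave no call among the 10 (0 in limma, 0 at an unadjusted 0.05, and 0% of all genes called), and the groups overlapped for all 10 genes against 9.07% of all genes that did not. Of the 10 genes, 9 were higher in R206W Control, with a median of 0.20 against 0.13 over all genes, and 2 of 10 once KO Control 1 was left out (median -0.11).

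Between the 2 P209L controls of 3 weeks and the 6 other controls of 8 weeks, 3 of the 10 genes were called. Cdh5 and Flt1 were lower at 3 weeks and Ly6c1 was higher. That share is near the 36.1% called among all genes, 24.8% lower and 11.3% higher (21.9% and 22.5% after quantile normalization, with 2 members lower and 1 higher). In all, 8 genes had a lower mean and 2 a higher one (Cldn5 and Ly6c1), with a median of -0.46 against -0.12 over all genes. The groups were apart for Slco1a4 and Ly6c1, while 38.2% of all genes did not overlap.

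Cdh5, the adherens junction cadherin of endothelium, was at 1.53 and 2.44 TPM at 3 weeks, and at 2.04 to 6.91 TPM at 8 weeks with a median of 5.09 TPM. The difference was -0.94 ± 0.30 (SE; adjusted p = 0.0229 in limma). Flt1, the decoy-like receptor that binds VEGF, was at 6.87 and 8.02 TPM against 6.71 to 23.7 TPM with a median of 16.1 TPM. It differed by -0.93 ± 0.32 (SE; adjusted p = 0.0346). In both genes only KO Control 1 overlapped with the younger mice.

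Ly6c1 was at 115 and 121 TPM at 3 weeks, above all 6 older controls, which spanned 83.7 to 109.9 TPM. It differed by 0.32 ± 0.10 (SE; adjusted p = 0.0252 in limma). Its near-identical relative Ly6c2 was at 1.84 and 2.03 TPM in the same controls and reached 2.60 TPM at most. How reads shared by the 2 genes were assigned was not tested. The ratio of Ly6c1 to Flt1 was 15.1 and 16.7 in P209L Control and 17.3 to 22.9 in P209L, against 3.87 to 12.5 in the 12 mice of 8 weeks.

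Slco1a4 was at 42.5 and 50.4 TPM at 3 weeks and at 55.8 to 67.6 TPM in the older controls, a difference of -0.38 ± 0.15 (SE; adjusted p = 0.0541). Including mutants, all 5 mice of 3 weeks (highest 50.4 TPM) were below all 12 of 8 weeks (lowest 50.9 TPM) for Slco1a4 alone, 1 of 10 against 10.2% of all genes. With KO Control 1 left out the same held for 5 of 10 genes (Cdh5, Pecam1, Slco1a4, Flt1 and Tek) and for 23.8% of all genes. Pecam1 differed by -0.75 ± 0.28 (adjusted p = 0.0505), Tek by -0.55 ± 0.24 (adjusted p = 0.092) and Slc2a1 by -0.73 ± 0.36 (adjusted p = 0.125).

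Cldn5 did not follow the other junction genes across age. It was at 20.2 and 25.97 TPM at 3 weeks and at 13.9 to 31.7 TPM at 8 weeks, a difference of 0.14 with a 95% interval of -0.43 to 0.71. The ratio of Cldn5 to Cdh5 was 10.6 and 13.2 in P209L Control and 11.8 to 18.6 in P209L, and 3.36 to 7.06 in every mouse of 8 weeks. This ratio too sets a shorter transcript (Cldn5, 1416 bases) against a longer one (Cdh5, 3995 bases), and the part of length was not tested. Mfsd2a and Abcb1a differed by -0.31 and -0.23, neither past the threshold.

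The age calls depended on single mice, as did the share called among all genes. None of the 10 genes was called without P209L Control 1 (18.3% of all genes) or without P209L Control 2 (16.7%), and 6 were called without KO Control 1 (50.3%). Without R206W Control 1 or R206W Control 2 the count was 1 (31.9% and 30.8%). When transcript length and GC trends were removed together, Cdh5 (-0.74) and Pecam1 (-0.58, adjusted p = 0.0326 in limma) were called, and Flt1 (-0.54, adjusted p = 0.0584) and Ly6c1 (0.20, adjusted p = 0.0957) were not, with 42% of all genes called. Sample weights gave 8 calls and 58.2% of all genes.

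The wider vascular lists placed these genes among their partners. In KO, R206W and P209L none of the other genes in the 10 vascular lists was called by limma. Sample weights gave calls in 6 of these lists in KO, 4 of 23 among endothelial identity genes and 1 in each of the others. That fit called 17.1% of all genes, so 4 of 23 is near its background. Of the endothelial identity genes, 22 of 23 tested were higher in KO (11 of 23 without KO Control 1), against 67.3% of all genes. In P209L 20 of 23 were lower (18 of 23 without P209L Control 2), against 46.2% of all genes. The genes with the smallest p in KO were Tagln of smooth muscle (0.68), the transcription factor Gata2 (0.58) and the VEGF-family ligand Pgf (0.36), each at an adjusted p of 0.999 in limma.

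In R206W, Ly6a, a relative of Ly6c1 in the same family, differed by -0.32 with every R206W mouse below its controls, and Vegfc and Ndp, ligands of VEGF and Wnt receptors, differed by 0.38 and 0.22 (adjusted p = 1 for all 3). In P209L the smallest p belonged to Egfl7, a secreted endothelial protein (-0.36), to the transporter Slc22a8 (-0.54) and to the pericyte gene Atp13a5 (-0.47), with adjusted p of 0.493 to 0.509. Slc22a8 was at 10.1 and 12.8 TPM in P209L Control and at 6.45, 6.86 and 9.50 TPM in P209L. Egfl7 was at 70.0 and 77.1 TPM in controls and at 61.1, 50.5 and 59.9 TPM in P209L. P209L Control 2 held the higher control value of Egfl7, Slc22a8 and Atp13a5, and values without it are not given.

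Between ages, Tjp1 (-0.70) and Jam2 (-0.32) of the tight and adherens junction list, a scaffold and an adhesion protein of the junction, were called lower. Nrp1 and Nrp2, coreceptors of VEGF, were lower (-1.10 and -0.66), as was Vegfb (-0.45), so 3 of 8 genes in that list were called lower and 1 higher. The Wnt list had 5 of 14 lower, among them the coreceptors Lrp6 (-0.67) and Lrp5 (-0.78), and 2 higher, Ctnnb1 (beta-catenin, 0.52) and the ligand Ndp (0.30). Epas1, a hypoxia-responsive transcription factor of endothelium, differed by -0.91 and was the single call among 11 transcription factors. Of 14 transporters, the cationic amino acid transporter Slc7a1 was lower (-1.13) and the monocarboxylate transporter Slc16a1 higher (0.59). These counts stand against 24.8% lower and 11.3% higher among all genes. With length and GC trends removed, 21.3% of all genes were called higher and 20.6% lower. Counts of higher and lower calls then moved to 4 and 1 (Wnt), 6 and 3 (transporters) and 1 and 2 (VEGF). Without P209L Control 2 they were 1 higher and 1 lower, 0 higher and 1 lower, and 0 higher and 2 lower. In the junction list 1 gene was called, lower, with the trends removed and 1 without P209L Control 2.

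The endothelial identity list had 2 genes called in each direction: Egfl7 (0.48) and Ecscr (0.58) were higher at 3 weeks, and Adgrf5 (-0.999) and Nostrin (-0.45) were lower. Once the trend with length and GC was taken out the split was 5 higher and 1 lower, and without P209L Control 2 it was 0 and 1. Lama4, a laminin of vessel basement membrane, was higher (0.85) and Apln, the ligand of the apelin receptor, lower (-0.83), and Vcam1 was lower (-0.50) but no gene of its list was called with the trends removed. Among pericyte genes Rgs5 was lower (-0.62) and Cspg4 higher (0.51), a split of 2 higher and 1 lower with the trends removed and of 0 and 1 without P209L Control 2. Blood transcripts were higher at 3 weeks in all 5 genes, with sums of 2570 and 4880 TPM against 696 to 1250 TPM in the older controls, and their part in the values of the vascular genes was not tested.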

How the data were processed

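Total RNA libraries (TruSeq Stranded Total RNA) of flash-frozen cortex were sequenced by the authors, and the submitters' processing notes name Trim Galore, STAR 2.7.1a, GATK 4.0.4.0, RSEM and the mm10 genome, with no annotation release given in the sources used here. The deposited table holds TPM values made by the authors, which sum to the same total in every sample and carry no depth, so no counting interval could be given. Groups were taken from the sample labels. No values of other samples were in the table, and no sample was left out.

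Entries with a repeated symbol (120 of 55573) were summed. Genes with a mean of at least 1 TPM over the 17 samples (16265) were tested on log2(TPM + 1), which understates the change of low genes, with limma 3.58.1 in R 4.3.3. The linear model had a mean for each of the 6 groups, a mean-dependent prior (trend), two-sided tests and Benjamini-Hochberg adjustment over all genes of a comparison. A gene was called at an adjusted p under 0.05. The script was tested on simulated data. Where replicates are littermates of a line, p-values measure the spread between these mice.

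The 10 genes and all gene lists were chosen with earlier results of these data known. Named besides the members were, per comparison, up to 3 called genes of each vascular list with the smallest adjusted p, or the 3 with the smallest p where none was called, and the 10 genes most like the mean of the members. Between ages, Ndp and Nostrin were named after their values were seen. Gene positions, GC content and length were read from GENCODE M21 (GRCm38), promoters from RefSeq (GRCm38.p6). Alternatives covered scaling, pseudocounts, filters, a replicate block, robust and weighted fits and leaving out each mouse. Removing the length and GC trend (natural splines, 4 degrees of freedom), and leaving out KO Control 1 and KO 3 together, were chosen after seeing the data. Not every called gene of the lists is reported here.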

Additional observations from a re-analysis of the deposited data

How the results depend on the processing

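No member was called for any mutant against its controls under another scaling, pseudocount or filter, a replicate block, or with any mouse left out, and sample weights gave 2 calls in KO, where 17.1% of all genes were called. Scaling moved the median of all genes between ages from -0.12 to 0.00815 (quantile normalization) and -0.0219 (size factors). Slc2a1 in KO against KO Control reversed to -0.0404 with size factors, -0.0273 with quantile normalization, -0.0205 without mitochondrial genes and -0.0784 with the length and GC trends removed. Slco1a4 in R206W against R206W Control reversed to -0.00598, -0.0117 (quantile normalization) and -0.0133 (no mitochondrial genes), and to -3.07e-05 with a pseudocount of 0.1. With sample weights KO values were -0.0209 (Pecam1), -0.54 (Slc2a1), -0.227 (Mfsd2a), -0.0978 (Flt1), -0.211 (Cdh5) and -0.0512 (Abcb1a). Flt1 in R206W was then -0.0198, Mfsd2a in P209L was 0.032, and 8 members (58.2% of all genes) were called between ages. With these weights the median of the KO minus R206W effects was -0.0528, and 1 member was called for P209L minus KO (3.63% of all genes). With the length and GC trends removed, Abcb1a in R206W was 0.00985, Mfsd2a in P209L 0.0354, and between ages Abcb1a was 0.143 and Cldn5 -0.0166. Between ages 1 member was called without a filter (16.1% of all genes) and 1 with only the groups compared (27.3%). The cause was not tested.

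With mice left out, the KO median ranged from -0.30 to 0.576, and single genes from -0.284 to 0.571 (Pecam1), -0.871 to 0.397 (Slc2a1), -0.468 to 0.393 (Mfsd2a), -0.42 to 0.731 (Flt1), -0.41 to 0.601 (Cdh5), -0.317 to 0.647 (Abcb1a) and -0.0886 to 0.681 (Tek). The R206W median ranged from 0.00231 to 0.11, with Slc2a1 from -0.17 to 0.0729, Slco1a4 from -0.0935 to 0.126, Abcb1a from -0.0599 to 0.0663 and Flt1 from -0.0235 to 0.189. Mfsd2a in P209L ranged from -0.0949 to 0.0256. Between ages 0 to 6 members were called and Cldn5 ranged from -0.0362 to 0.313. The median of R206W Control against KO Control ranged from -0.109 to 0.471, and those of the effects from -0.332 to 0.449 (KO minus R206W), -0.556 to -0.214 (P209L minus R206W) and -0.923 to -0.0866 (P209L minus KO). Where P209L Control was left with 1 sample, that sample was assumed to vary like the other groups.

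The labels do not say whether same-numbered mice form pairs, and the main fit did not pair them. Correlations of their deviations from the group means were -0.0581 to 0.331 in the KO line and -0.113 to -0.0283 in the R206W line. In the P209L line they were 0.00276 to 0.0814. With 2 or 3 mice per group, these values do not settle whether the numbers mark pairs. With the replicate block, the medians were 0.31 (KO), 0.05 (R206W) and -0.45 (P209L) with no call, and that of P209L minus R206W was -0.542. The same fit called 4 members between ages, with 36.2% of all genes called. Precision is limited by 2 or 3 mice per group and an unknown depth.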

Other observations

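Vascular smooth muscle genes, 4 of 6 of which passed the filter on low values, were higher in all 4 cases in KO, with a median of 0.57 and none called by limma (adjusted p = 0.999). The median was 0.21 without KO Control 1 and 0.04, with 3 of 4 higher, without KO 3. Their summed level was 21.3, 38.4 and 46.2 TPM in KO Control and 42.4, 33.7 and 88.8 TPM in KO. In P209L the same 4 genes were lower, with a median of -0.36 (-0.15 without P209L Control 2) and none called. Blood transcripts were lower in R206W than in its controls for 5 of 5 genes, with a median of -0.48 and none called, and their sums were 560 to 693 TPM against 736 to 1250 TPM.

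Ttr, the transthyretin gene that choroid plexus epithelium expresses strongly, was at 1740 TPM in P209L Control 2 and at 0.67 to 23.2 TPM in the other 16 mice. Among the 6 controls of 8 weeks, no member had a sample whose gap to its neighbour passed 0.625 of the range. The largest gap was 0.615, for Pecam1 in KO Control 1. KO Control 3 was often at the other end and widened the range, so this rule does not show KO Control 1 to be typical.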
